A study of Mus musculus with 912 samples.

Results

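Granule cells of the dentate gyrus (DG) that had no FOS protein 1 h after a mouse was put in an unfamiliar environment (NE) were compared with granule cells of mice that stayed in the home cage (HC). The comparison held 50 of the 912 nuclei of the series, and each nucleus was sequenced as its own SmartSeq2 library. Nuclei entered when the submitters had labelled them DG, when they came from the PROX1+CTIP2+ sort, when at least 4000 genes lay above 1 on the log2(TPM+1) scale, and when Arc was not above 2.5 on that scale. Of 29 nuclei labelled 1 h and FOS-, 27 were kept, and of 24 labelled HC, which were also labelled FOS-, 23 were kept. Below, FOS- names the 1 h nuclei alone. The kept nucleus closest to the gene limit had 4511 genes, and the nearest one left out for too few genes had 2070. The highest Arc value kept was 2.06. One HC nucleus was left out for Arc alone, at 6.52.

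All mice were wild-type C57BL6 females, and neither group carried a transgene. The 27 FOS- nuclei came from 1 mouse (mouse 3, 8.7 weeks old), which explored the NE and was then put back in its home cage until 1 h. The 23 HC nuclei came from 2 mice, 18 from mouse 6 (7.75 weeks) and 5 from mouse 7 (8.57 weeks). Mouse 3 also gave 26 FOS+ DG nuclei, which are set beside the others below. The library names carry 1 date code for mouse 3 and another for both HC mice, so exposure, mouse, age and date code cannot be told apart here. There was no replicate mouse at 1 h, and a permutation of 1 mouse against 2 cannot reach 0.05. Nuclei of 1 mouse are not independent, so counts were summed over the nuclei of each mouse and group. The sums were tested with edgeR in 1 fit over all DG groups of the series, in which the 1 h mouse was assumed to vary as the other mice do.

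The FOS- nuclei were the deeper ones. Total counts ran from 679114 to 2594899 with a median of 1378220 in FOS- nuclei, from 452078 to 2498965 with a median of 1029082 in HC mouse 6, and from 448533 to 1884777 with a median of 558093 in HC mouse 7. The median number of genes above 1 was 6209, 5631.5 and 6314 in the same order. The label DG was checked against granule cell markers, which were present in both groups. Prox1, the transcription factor used in the sort, was counted in every one of the 50 nuclei, with mean levels of 5.15 log2(TPM+1) in FOS- nuclei, 5.18 in HC mouse 6 and 5.45 in HC mouse 7. Of the 18 granule cell markers, the median nucleus had 10, 11 and 12 above 5 in these groups, and none of the 18 passed the test (7 higher, 11 lower, median log2 fold change -0.10). This median was 0.15 without HC mouse 6, -0.27 without HC mouse 7 and 0.48 with 2 HC nuclei from other sorts added. Bcl11b, which encodes CTIP2, had mean levels of 2.51, 3.81 and 3.78. Those 2 nuclei, labelled DG, were used only as an added setting, in which the minimum of 2 nuclei per sum was dropped. A single nucleus could there count as an HC sum beside those of HC mice 6 and 7. The 2 nuclei were less like granule cells. Their granule cell markers had a mean of 2.87 log2(TPM+1) with 5 of the 18 at 0, against 5.11 and 5.41 in HC mice 6 and 7, and their CA pyramidal markers had 2.22 against 0.98 and 0.99.

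Granule cells are the excitatory neurons of the DG and fire sparsely, so that only a small share of them responds to any one environment. In a neuron that fires, calcium entry and the phosphorylation of the transcription factor CREB switch on immediate early genes (IEGs) such as Fos, Arc and Bdnf, and the FOS protein made from this transcript then drives later genes. A nucleus that lacks FOS protein after NE exposure is usually taken as one whose neuron did not respond. Its comparison with HC nuclei asks what the exposure changed in the granule cells around the responding ones.

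CREB binds promoters at a short sequence that can be read directly. The 250 bases before the transcription start of Fos, and before the 1 of 7 Bdnf start sites that holds a CREB core site, are shown because both are known CREB targets whose transcripts had different levels in these nuclei. They are the RefSeq sequence of GRCm38.p6, at chr12:85473640-85473889 (plus strand) and chr2:109692186-109692435 (plus strand), and capitals mark TGACG or its reverse complement CGTCA, searched on both strands.
Fos: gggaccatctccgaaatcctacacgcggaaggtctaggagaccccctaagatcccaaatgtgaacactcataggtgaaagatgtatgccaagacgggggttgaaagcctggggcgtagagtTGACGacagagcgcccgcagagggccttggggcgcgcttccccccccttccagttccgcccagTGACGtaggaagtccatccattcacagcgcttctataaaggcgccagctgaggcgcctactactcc
Bdnf: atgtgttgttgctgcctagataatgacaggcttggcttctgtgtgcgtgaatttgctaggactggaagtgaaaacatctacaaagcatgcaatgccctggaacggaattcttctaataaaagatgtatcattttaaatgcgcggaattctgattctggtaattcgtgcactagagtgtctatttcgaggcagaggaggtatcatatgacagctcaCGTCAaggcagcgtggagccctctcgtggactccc
The Fos window holds 2 core sites, which begin 129 and 66 bases before the start, and the Bdnf window holds 1, at 35 bases. A core site occurs in 17.8% of 32851 promoter windows of this length, and the full 8-base palindrome TGACGTCA, which contains it, in 1.55%. Nr4a1 had 4 core sites in its window, Fosb and Atf3 had 1 each, and Inhba had none. A match describes the letters of the window and is not evidence of binding.

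Across the transcriptome, no gene passed the test between FOS- and HC nuclei. Of 24291 genes tested by edgeR, 0 were called at an adjusted p below 0.05 (0.0%), and the smallest adjusted p was 0.988. At an unadjusted p below 0.05 there were 529 genes (2.18%), 446 higher in FOS- nuclei (1.84%) and 83 lower (0.342%). On the same scale, 43 genes were called between the FOS+ nuclei of mouse 3 and HC (0.177%), and 5 between FOS+ and FOS- nuclei (0.0206%), 4 of them higher in FOS+. limma was run on the mean log2(TPM+1) of each mouse, where the nuclei of 1 mouse weigh the same. HC mice 6 and 7 also weigh the same, though they gave 18 and 5 nuclei. limma called 15 of 14621 genes (0.103%), 11 higher and 4 lower in FOS- nuclei. At an unadjusted limma p below 0.05 were 1125 genes (7.69%), 532 higher (3.64%) and 593 lower (4.06%). DESeq2 on the same sums called 511. Leaving out HC mouse 6 gave 19 edgeR calls, all higher in FOS- nuclei, and leaving out HC mouse 7 gave 0. The common dispersion between sums was 2.149, and the median standard error of a log2 fold change was 2.58.

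FOS- nuclei held about the number of activity genes that HC nuclei held. The early, sustained and late genes are lists of the study, chosen by their time course in FOS+ and ARC+ nuclei. Of the 252 early genes, the median FOS- nucleus had 59 above 5 log2(TPM+1) (lowest 36, highest 91). The HC medians were 55.5 in mouse 6 (35 to 90) and 64 in mouse 7 (35 to 90), so the ranges overlapped almost fully. Every FOS+ nucleus lay above every FOS- and HC nucleus, with 101 to 161 early genes and a median of 122.5. Of the 107 sustained genes, the medians were 33 in FOS- nuclei (20 to 50), 29.5 in HC mouse 6 (17 to 46), 29 in HC mouse 7 (21 to 38) and 75 in FOS+ nuclei (66 to 86). Both lists were chosen on nuclei that include these, so the position of the FOS+ nuclei is no independent evidence.

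**Figure D1:**
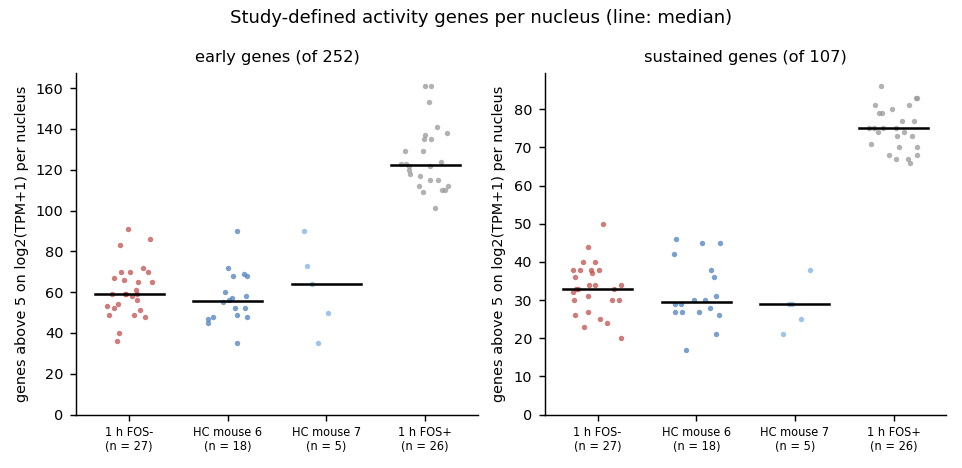
Number of early genes (left, of 252) and sustained genes (right, of 107) above 5 log2(TPM+1) in each nucleus, by group, with 1 point per nucleus and a line at the median. The ranges of FOS- nuclei and both HC mice overlap, and all 26 FOS+ nuclei (grey) lie higher.

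In the test over sums the early genes split almost evenly, 136 higher and 116 lower with a median log2 fold change of 0.12, beside 11494 higher (47.3%) and 9556 lower with a median of 0.00 over all genes tested. No early gene was called, and 8 (3.17%) had an unadjusted p below 0.05. The median was 0.62 without HC mouse 6, where that of all genes was 0.41, and 0.13 without HC mouse 7. Of the 107 sustained genes 65 were higher and 42 lower, with a median of 0.54, which was 0.89 without HC mouse 6 and 0.1 without HC mouse 7. None was called by edgeR, and 19 (17.8%) had an unadjusted p below 0.05, beside 2.18% of all genes. One of the 19 was Arc, which the choice of nuclei bounded. Of the other 106, 18 (17.0%) had such a p, 14 of them higher and 4 lower. The study chose this list against HC nuclei that include these, so a difference from them is not independent evidence. The 14 higher ones were Asb11, Slc6a8, Synpo, Per2, Ppan, Trim9, Atf3, Rfwd2, Npy, Vgf, Zdhhc5, Gpr3, Fmnl1 and Nptx2, and the 4 lower ones were Sult2b1, Mir22hg, Rbbp7 and Abr. limma called 1 of the list, Ccnt2, described below. In FOS+ nuclei, against HC, 26 sustained genes were called and the list median was 2.63. Of the 129 late genes 73 were higher and 55 lower, with a median of 0.09 (0.29 without HC mouse 6 and 0 without HC mouse 7) and none called, and 13 (10.1%) had an unadjusted p below 0.05, 5 higher and 8 lower. Both 1 h groups were set against the same HC sums.

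The IEGs themselves were low in FOS- and HC nuclei. Of 40 tested, 19 were higher and 18 lower in FOS- nuclei, the median was 0.00 and none was called, where 7 were called in FOS+ nuclei with a median of 6.53. The FOS- median was 2.71 without HC mouse 6 and 0 without HC mouse 7. Without Arc, an unadjusted p below 0.05 was found for 5 of 39 (12.8%, beside 2.18% of all genes), 4 higher and 1 lower, and in all 4 higher ones 3 nuclei held over 80% of the FOS- counts. The median nucleus had 2 IEGs above 5 in the FOS- group (0 to 7), 3 in HC mouse 6 (1 to 7), 2 in HC mouse 7 (1 to 3) and 17 in FOS+ nuclei (12 to 29).

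Fos (chr12:85473890-85477273, plus strand, GRCm38), the gene of the sorted protein, was barely detected. It had a count in 7 of 27 FOS- nuclei (25.9%, exact 95% interval 11.1 to 46.3%), in 10 of 18 nuclei of HC mouse 6 (55.6%, 30.8 to 78.5%) and in 0 of 5 of HC mouse 7 (0 to 52.2%). No FOS- or HC nucleus had more than 2 counts. With each nucleus thinned to 100000 counts, Fos was seen in 0 of 27 FOS- nuclei and in 3 of 18 and 0 of 5 HC nuclei. In FOS+ nuclei it had a count in 19 of 26 (73.1%), and 9 of the 26 lay above 5. These intervals cover counting error alone.

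Arc (chr15:74669083-74672570, minus strand), whose protein acts at synapses, was bounded by the choice of nuclei, so its level is a description and its test supports nothing. It was counted in all 27 FOS- nuclei, with 1 to 8 counts and a median of 2, in 7 of 18 nuclei of HC mouse 6 and in 2 of 5 of HC mouse 7, with at most 2 counts. Thinned to 100000 counts, it was seen in 8, 1 and 1 nuclei. Its 78 counts over the FOS- nuclei were 0.0898% of the 86867 counts over the FOS+ nuclei of the same mouse and date code. For Inhba (chr13:16011851-16031621, plus strand), which encodes the activin subunit beta A, this share was 0.159% (168 of 105921 counts). Inhba was counted in 26 of 27 FOS- nuclei, mostly at a few counts (median 2, highest 59). In HC it was counted in 6 of 18 and 4 of 5 nuclei, and a single nucleus of mouse 6 held 270 counts, which were 96.8% of all HC counts. The source of the low Arc and Inhba counts was not tested.

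Bdnf (chr2:109674700-109727007, plus strand), the neurotrophin, had both low and high FOS- nuclei. Counts per nucleus were 0, 4 and 2969 in FOS- nuclei (lowest, median, highest), 1, 340 and 1523 in HC mouse 6, and 0, 437 and 743 in HC mouse 7. It lay above 5 in 11 of 27 FOS- nuclei, 12 of 18 and 3 of 5 HC nuclei, and 25 of 26 FOS+ nuclei. Mean levels were 3.55 in FOS- nuclei against 6.02 and 5.06 in the HC mice, the FOS- mouse below both. The difference did not pass either test, at a log2 fold change of -0.60 (SE 0.55) by edgeR and -2.00 (SE 0.95, adjusted p = 0.635) by limma. With only nuclei whose Arc was not above 1 it was -2.29 by edgeR (unadjusted p = 0.0011), but this limit leaves out 12 of 27 FOS- and 2 of 23 HC nuclei by the level of another IEG, so the value is a description. Egr1, another IEG transcription factor, had means of 1.15, 1.81 and 0.26 log2(TPM+1), and Jun, a partner of FOS, had 2.96, 2.73 and 1.97. Plk2, an IEG kinase, had 3.94, 4.10 and 2.57 and lay above 5 in 13 of 27 FOS- nuclei.

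Synpo, which encodes the actin-binding spine protein synaptopodin, was among the sustained genes with more transcript in FOS- nuclei. Counts per nucleus were 1, 257 and 2788 in FOS- nuclei, 0, 28 and 334 in HC mouse 6 and 0, 30 and 175 in HC mouse 7, so the ranges overlapped. The sums came to 250.0 CPM (counts scaled to a common library total) in FOS- nuclei, 70.5 and 62.4 in the HC mice and 2460 in FOS+ nuclei. The difference from HC was 3.76-fold (log2 1.91, SE 0.51, unadjusted p = 0.0011) and did not pass after adjustment by edgeR. By limma it was 1.26 on the log2 scale, without an unadjusted p below 0.05. Synpo lay above 5 in 14 of 27 FOS- nuclei, in 8 of 18 and 3 of 5 HC nuclei and in 25 of 26 FOS+ nuclei. Trim9, a brain ubiquitin ligase of axon growth, was counted in all 27 FOS- nuclei and was higher by 0.98 (SE 0.29, unadjusted p = 0.0031), with mean levels of 7.4 against 4.83 and 5.86.

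**Figure D2:**
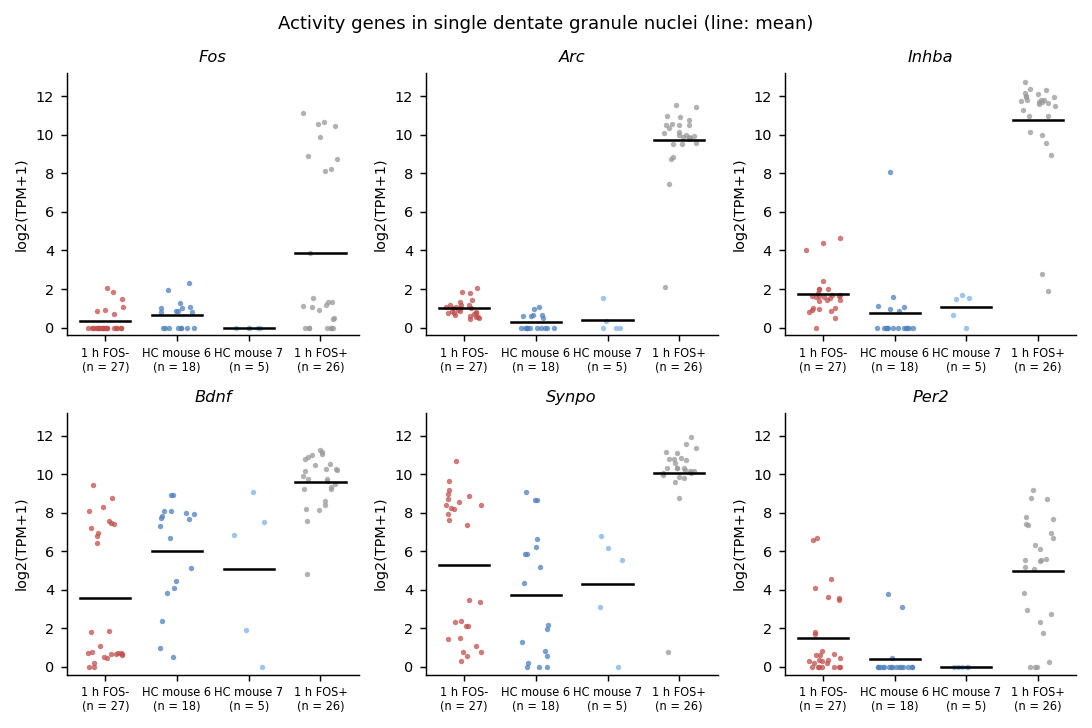
log2(TPM+1) of 6 activity genes in each nucleus, by group, with 1 point per nucleus and a line at the mean. Fos and Arc are at or below 2.06 and Inhba at or below 4.67 in FOS- nuclei, while Bdnf and Synpo have both low and high nuclei there, and the FOS+ nuclei (grey) are high for Arc, Inhba, Bdnf and Synpo.

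Several other sustained genes with a small p were led by a few FOS- nuclei, and for 9 of the 14 higher ones 3 nuclei held over 80% of the FOS- counts. Atf3, a stress-responsive transcription factor, was counted in 10 of 27 FOS- nuclei and in 0 of 18 and 0 of 5 HC nuclei. The upper limits in the HC mice were 18.5% and 52.2%, for counting error alone. It was at least 60.6-fold higher against a floor of 3 counts over the HC nuclei, but 97.4% of its counts lay in 3 nuclei. Slc6a8 (chrX:73673150-73682502, plus strand), the creatine transporter, had 42.1 CPM in FOS- nuclei against 0.816 and 0.399 in the HC mice and 344 in FOS+ nuclei. It lay above 5 in 4 of 27 FOS- nuclei and 3 of them held 89.0% of the counts (log2 fold change 6.03, SE 1.44, unadjusted p = 0.00038). Its limma difference was 1.13, without an unadjusted p below 0.05. With the 2 HC nuclei from other sorts added, its log2 fold change was 0.02 (unadjusted p = 0.99). Of the 6 other genes of creatine synthesis and use, none was higher. Nptx2, a neuronal pentraxin that clusters AMPA receptors, was counted in 8 of 27 FOS- nuclei with 99.2% of its counts in 3 of them, and its log2 fold change was 0.16 with those 2 nuclei added. Homer1, a scaffold of the postsynaptic density, had a log2 fold change of 2.67 in the main fit (SE 1.41, unadjusted p = 0.072) and 68.7% in 3 nuclei. Some other edgeR settings gave it an unadjusted p below 0.05, and its limma difference was 0.59. Mir22hg, the host transcript of miR-22, went the other way at -2.41 (SE 0.67, unadjusted p = 0.0017), with 11.5 CPM in FOS- nuclei against 61.9 and 60.0 in the HC mice and 444 in FOS+ nuclei, and its limma difference was -0.76.

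Of the clock genes, 14 of 21 were higher and 7 lower in FOS- nuclei. None was called by edgeR, and 2 (9.52%) had an unadjusted edgeR p below 0.05, beside 2.18% of all genes. DESeq2 called Per2. The list median was 0.14, and it was 1.92 without HC mouse 6 and -0.06 without HC mouse 7. Per2 (chr1:91415982-91459324, minus strand), a repressor of the clock that also responds to activity, was counted in 20 of 27 FOS- nuclei, in 3 of 18 nuclei of HC mouse 6 and in 0 of 5 of HC mouse 7. Its log2 fold change was 4.37 (SE 1.17, unadjusted p = 0.0012), and 87.4% of its FOS- counts lay in 3 nuclei. It was 3.39 without HC mouse 7 and 1.31 by limma (unadjusted p = 0.16). Without HC mouse 6 the edgeR fit gave 13.46 against no HC count at all, so that value depends on the prior count. Per3, its relative, was spread more evenly, with 2, 393 and 1506 counts per nucleus in FOS- nuclei (lowest, median, highest), 0, 192 and 708 in HC mouse 6 and 1, 54 and 529 in HC mouse 7. It lay above 5 in 23 of 27 FOS- nuclei, 10 of 18 and 2 of 5 HC nuclei, and in only 5 of 26 FOS+ nuclei. Its limma difference was 1.81 (unadjusted p = 0.051) and its edgeR log2 fold change 1.01 (SE 2.70, unadjusted p = 0.71). The clock repressor Nr1d1 had means of 2.91, 1.56 and 2.02 log2(TPM+1), and Cry2 had 3.88, 4.43 and 7.47.

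Glucocorticoid-responsive genes, which stress hormone switches on through its receptors, were higher in 13 of 20 and lower in 6, with a median log2 fold change of 0.45 and none called. This median was 0.79 without HC mouse 6 and 0.01 without HC mouse 7. Tsc22d3, the gene of the leucine zipper protein GILZ, was counted in 6 of 27 FOS- nuclei and in 0 of 23 HC nuclei. The upper limits for 0 of 18 and 0 of 5 HC nuclei were 18.5% and 52.2%, for counting error alone. Its summed counts, scaled to the total, were at least 900.0-fold higher against the floor of 3 counts over the HC nuclei. But 92.8% of these counts lay in 3 nuclei, and 5 nuclei were above 5. limma gave a difference of 1.43 (adjusted p = 0.267). For other targets of this hormone the means are given in the same order of groups. Fkbp5, a chaperone of the receptor, had means of 2.67, 2.11 and 2.61, Sgk1, a kinase, had 2.42, 2.37 and 1.09, and Mt1, a metallothionein, had 4.54, 6.25 and 3.62.

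Most genes of the respiratory chain had lower values in FOS- nuclei, without passing the test. Of 81 nuclear-encoded oxidative phosphorylation genes tested, 65 were lower and 14 higher, with a median log2 fold change of -0.61, but this median was 0.07 when the 2 HC nuclei from other sorts were added. None was called, and 1 (1.23%) had an unadjusted p below 0.05, beside 2.18% of all genes. Of the 78 members with a mean level above 1, 43 (55.1%) were below both HC mice, beside 25.6% of all genes, and 10 (12.8%) were above both, beside 31.9%. Against HC mouse 6 alone, 60 of 78 were lower, and against HC mouse 7 alone 51 of 78. The summed TPM of the list had a median of 16900 per FOS- nucleus, 23400 and 18900 in the HC mice, and 13900 per FOS+ nucleus, where the median log2 fold change against the same HC sums was -0.94.

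Some members with larger differences, in either direction, were named after their values were seen. Atp5h, a subunit of ATP synthase, had means of 5.17 log2(TPM+1) in FOS- nuclei and 7.88 and 8.18 in the HC mice (edgeR log2 fold change -2.03, SE 0.90, unadjusted p = 0.035; limma difference -2.86, SE 1.46, unadjusted p = 0.06). Uqcrq, a subunit of complex III, had 4.41, 7.57 and 7.43 (edgeR log2 fold change -1.29, SE 1.09, unadjusted p = 0.25; limma difference -3.09, SE 1.42, unadjusted p = 0.039). Ndufa9, of complex I, had 1.49, 3.31 and 3.75. Ndufa10, also of complex I, went the other way, with 5.67, 2.91 and 2.56 (edgeR log2 fold change 0.47, SE 0.95, unadjusted p = 0.62; limma difference 2.94, SE 1.28, unadjusted p = 0.029). By limma 1 member was higher and 1 lower at an unadjusted p below 0.05.

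**Figure D3:**
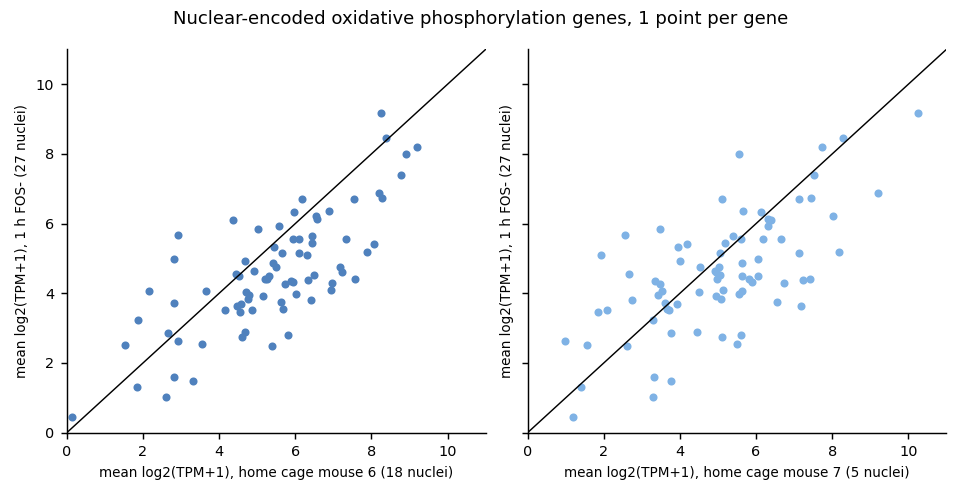
Mean log2(TPM+1) of the nuclear-encoded oxidative phosphorylation genes in the FOS- nuclei (vertical axis) against HC mouse 6 (left) and HC mouse 7 (right), with 1 point per gene and a line of equality. Most points lie below the line, 60 of 78 on the left and 51 of 78 on the right.

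Other abundant housekeeping transcripts were mixed. Ribosomal protein genes were lower in 58 of 80 and higher in 21, with a median of -0.38. Of 77 with a mean above 1, 27 (35.1%) lay below both HC mice, beside 25.6% of all genes, and 20 (26.0%) lay above both, beside 31.9%. Their median was -0.21 without HC mouse 6, -0.49 without HC mouse 7, 0.12 with the 2 HC nuclei from other sorts added and -0.1 by limma. Gapdh had means of 7.82 log2(TPM+1) in FOS- nuclei and 9.00 and 9.28 in the HC mice, but Malat1, a nuclear RNA, had 16.59, 16.88 and 16.56, and Actb had 10.20, 9.63 and 11.28. In glycolysis, 13 of 22 genes were lower and 9 higher. Ldha, the A subunit of lactate dehydrogenase, had means of 3.24, 4.50 and 6.62 (log2 fold change -2.01, SE 0.72, unadjusted p = 0.011, and -1.03 with the 2 other HC nuclei added). Pfkfb3, which sets the pace of glycolysis, had 2.76, 0.76 and 0.53 (5.56, SE 2.12, unadjusted p = 0.016), with 70.6% of its counts in 3 nuclei. Aligned reads were a median 26.5% of all reads in FOS- nuclei, 27.8% in HC mouse 6 and 16.5% in HC mouse 7, and the part of depth or of the share aligned in these differences was not tested.

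Nuclear long noncoding RNAs lay on the other side, with 10 of 14 higher, 4 lower and a median log2 fold change of 0.68. Of 11 with a mean above 1, 8 were above both HC mice and 1 was below both, beside 31.9% and 25.6% of all genes. The list median was 0.39 without HC mouse 6 and 0.08 with the 2 HC nuclei from other sorts added. Snhg11 (chr2:158375638-158386145, plus strand), a neuronal host transcript of small nucleolar RNA, had 25, 1706 and 11972 counts per nucleus in FOS- nuclei, 3, 198 and 2305 in HC mouse 6, and 10, 300.0 and 956 in HC mouse 7. Means were 8.83 against 5.98 and 6.66, and 4.65 in FOS+ nuclei. The difference was 1.98 (SE 1.33) by edgeR and 2.51 (unadjusted p = 0.027) by limma, and with those 2 nuclei added the edgeR value was 0.1 (unadjusted p = 0.94). Meg3, an imprinted RNA, had means of 9.57, 8.95 and 7.83 (log2 fold change 0.68, SE 0.31, unadjusted p = 0.040), and its neighbour Mirg a fold change of 4.69 on the log2 scale from 31.1 CPM against 1.92 and 0.399. For Meg3 the edgeR value was 1.18 without HC mouse 6, 0.26 without HC mouse 7 and -0.4 when the 2 HC nuclei of other sorts were added.

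Other genes that the study names for DG were read in the same order of groups. Gabra4, a subunit of the GABA-A receptor, had means of 6.2, 4.9 and 2.93, and Dlg2, a synaptic scaffold, had 5.51, 6.27 and 6.51. Sorcs3 and Blnk were at or below 1.22 in all 3 mice, and the demethylase Kdm6b had 2.15, 1.42 and 0.68 against 6.82 in FOS+ nuclei.

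**Figure D4:**
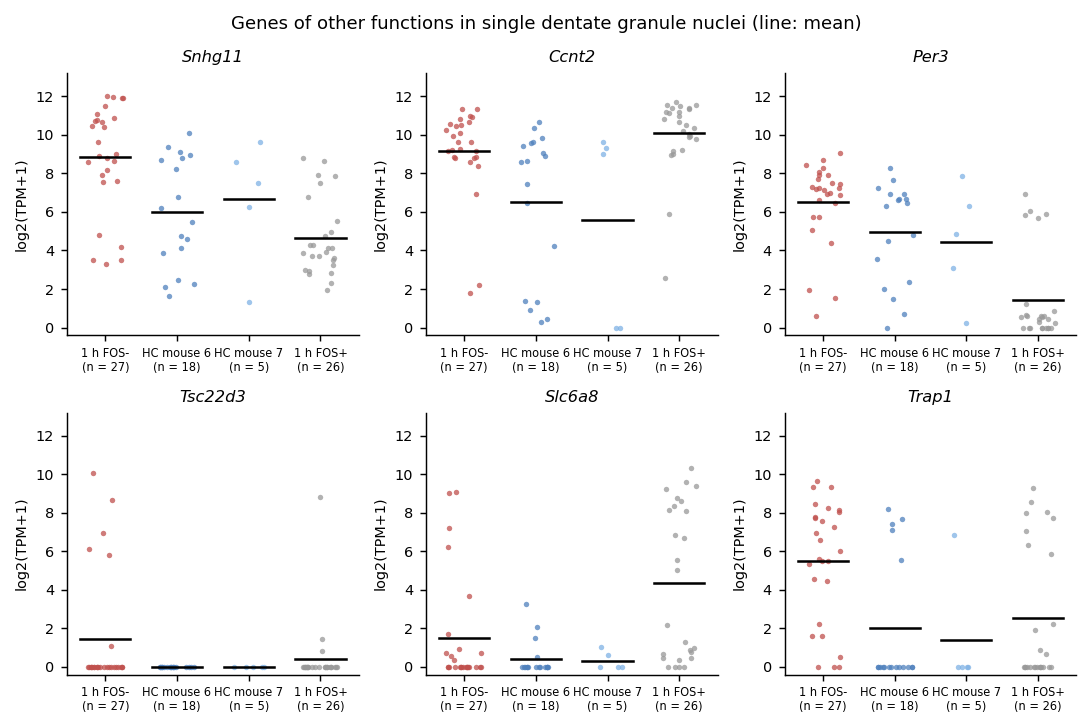
log2(TPM+1) of 6 genes with a difference between FOS- and HC nuclei in a mean or in a few nuclei, with 1 point per nucleus and a line at the mean. Above 5 are 22, 25, 23 and 18 of 27 FOS- nuclei for Snhg11, Ccnt2, Per3 and Trap1, beside 10, 12, 10 and 5 of 18 nuclei of HC mouse 6 and 4, 3, 2 and 1 of 5 of HC mouse 7. Tsc22d3 and Slc6a8 are high in 5 and 4 of the 27.

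The 15 genes called by limma were mostly low in both groups or present in part of the nuclei. Trap1 (chr16:4039971-4077827, minus strand), a chaperone of the mitochondrial matrix, was counted in 24 of 27 FOS- nuclei, 5 of 18 nuclei of HC mouse 6 and 1 of 5 of HC mouse 7. Means were 5.48, 2.00 and 1.37 (limma difference 3.8, SE 0.75, adjusted p = 0.0299). Ccnt2, a cyclin of the elongation factor P-TEFb, was higher by 3.11 (limma, adjusted p = 0.0175), with means of 9.16 against 6.51 and 5.58, and it was at 10.07 in FOS+ nuclei. Its edgeR log2 fold change was 0.82, without an unadjusted p below 0.05. Gm12216 and Ccdc28b were higher by 3.52 and 2.62 (limma, adjusted p = 0.0175 for each). The other 7 higher genes were Gm10605, Csf1, A830073O21Rik, Shd, Atoh7, Gm22256 and Gm11418, each counted in at most 14 of 27 FOS- nuclei, and 4 of these had no count in HC.

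The 4 genes lower by limma were Dynlt3, Gpr12, Bad and Gm23458. Dynlt3, a light chain of dynein, was counted in 2 of 27 FOS- nuclei and in 10 of 18 and 2 of 5 HC nuclei, and differed by -3.26 (limma, adjusted p = 0.0175). Gpr12, an orphan receptor, was counted in 7 of 27, 11 of 18 and 2 of 5 nuclei (-2.12, limma, adjusted p = 0.0175). Bad, which promotes cell death, was counted in 4, 8 and 2 nuclei (-2.01, limma, adjusted p = 0.0417). None of the 15 was called by edgeR on the sums, where Trap1 had a log2 fold change of 2.02 (SE 1.91), which was 3.27 without HC mouse 6 and 1.31 without HC mouse 7.

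Among genes above 1 log2(TPM+1) in at least 50% of the nuclei of the higher group, a limit that Dynlt3 missed with 11 of 23 HC nuclei, the 10 with the largest difference of means in each direction were read where the FOS- mouse lay outside both HC mice. Higher in FOS- nuclei were Trap1, Nfx1, Pop5, Creb3, Ctps2, Gm12216, Slirp and the near-identical Gm23935, Gm24245 and Gm24270, whose shared reads make their values uncertain. Nfx1, a zinc finger repressor, had means of 7.17, 4.40 and 2.42 (limma difference 3.76, adjusted p = 0.296), and Pop5, a subunit of RNase P, had 6.65, 3.88 and 2.05 (3.69, limma, adjusted p = 0.271). Lower were Mid1, Praf2, Tuba4a, Wdr33, Myh10, Txn1, Cdipt, Rps6, Drg1 and Ppme1. For some of these the HC mice were far apart, with mouse 7 the higher. Means in FOS- nuclei, HC mouse 6 and HC mouse 7 were 0.42, 1.78 and 7.58 for Mid1 and 3.65, 5.02 and 8.7 for Rps6. Drg1 had 1.78, 4.8 and 5.09. Myh10, a nonmuscle myosin, had means of 1.35, 4.79 and 4.80 and was counted in 12 of 27 FOS- nuclei (limma difference -3.45, adjusted p = 0.203). Txn1, thioredoxin, was counted in 4 of 27, 10 of 18 and 3 of 5 nuclei (-3.42, limma, adjusted p = 0.204). By edgeR the log2 fold changes of Nfx1, Pop5, Myh10 and Txn1 were 1.3, 2.1, -2.1 and -2.99. The genes of both directions were chosen by the size of the difference, so their size is a description.

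Neuronal gene groups were counted in the same way. Of all 24291 genes tested, 11494 (47.3%) were higher and 9556 lower. The rest lay at 0, which lowers that share. Beside it, 19 of 29 synaptic adhesion genes (65.5%) were higher and 10 lower, with a median of 0.33. Of 79 potassium channel genes 42 (53.2%) were higher and 26 lower (median 0.12), of 34 calcium and sodium channel genes 19 (55.9%) were higher and 12 lower (median 0.38), and of 16 GABA receptor genes 6 (37.5%) were higher and 9 lower (median -0.09). None of these genes was called. These medians depended on the HC mice, in the same order 0.53, 0.48, 0.67 and 0.16 without mouse 6 and 0.11, 0.1, 0.06 and -0.25 without mouse 7. By limma the potassium channel median was -0.15 and that of the GABA receptors 0.43.

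**Figure D5:**
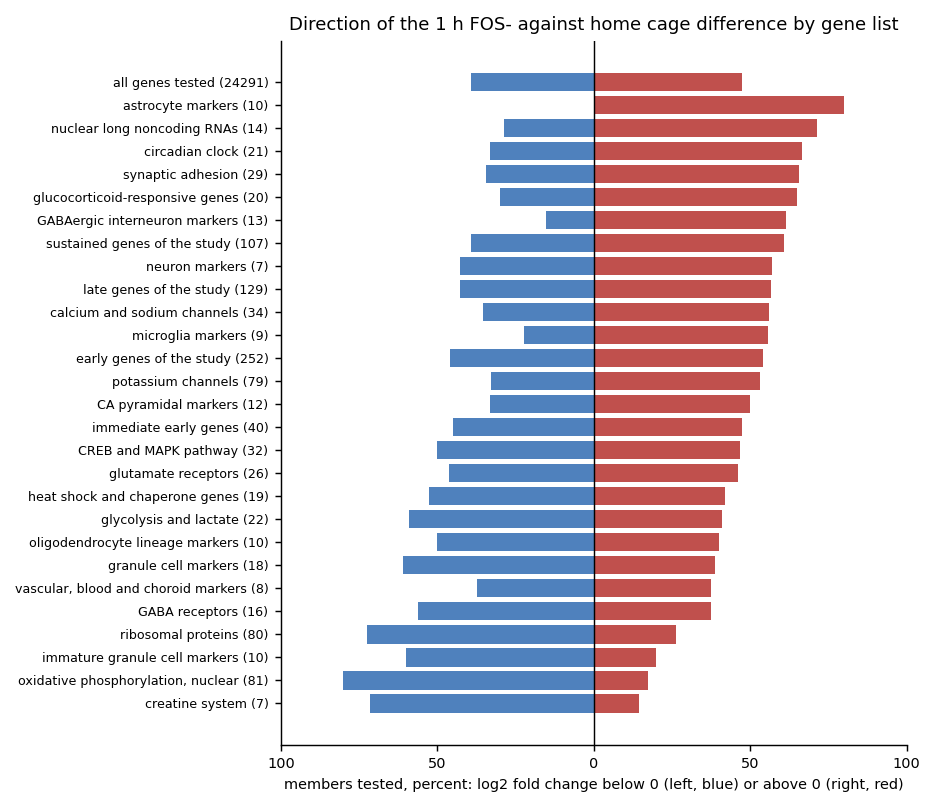
Share of the tested members of each gene list with a log2 fold change below 0 (left, blue) or above 0 (right, red) between FOS- and HC sums, in percent, with the number of members tested in brackets and all 24291 genes at the top. Oxidative phosphorylation and ribosomal protein genes lean to the left and nuclear long noncoding RNAs to the right, and no member of any list was called by edgeR.

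Markers of other cell types were also read. The 12 CA pyramidal markers summed to a median of 584 TPM per FOS- nucleus and 1210 and 620 in HC mice 6 and 7, led by Pcp4 in each, with 2, 5 and 8 of the 12 at 0 in every nucleus. The 15 GABAergic interneuron markers summed to 1330, 1110 and 956, led by Cck, with 5, 6 and 10 at 0, and the 5 mossy cell markers to 27.4, 95.6 and 146, led by Ap2s1, with 2 at 0 in each group. None of these genes was called. Of 10 astrocyte markers, 8 were higher in FOS- nuclei and none lower, with a summed TPM of 23.2 in the median FOS- nucleus and 3.05 and 2.42 in the HC mice. The most abundant was Aldoc in FOS- nuclei and HC mouse 7 and Slc1a3 in HC mouse 6, and 2, 5 and 8 of the 10 were at 0 in every nucleus. Vascular, blood and choroid markers summed to a median of 233, 2.07 and 425 TPM, led by the haemoglobin gene Hba-a2 in FOS- nuclei and HC mouse 7, and oligodendrocyte markers to 37.6, 52.5 and 213. Microglia markers were at or below 1.93 in every group median. The part of these transcripts in the differences above was not tested.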

How the data were processed

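Per the paper's methods, reads were trimmed by the authors in Solexa-QA++, then quantified through RSEM and Bowtie against mm10 with the Ensembl annotation, whose release is not given in the sources used here. RSEM expected counts per gene were used as deposited, where they were already whole numbers. The log2(TPM+1) values were computed by the authors and used as deposited. The gene, read (100000 aligned) and Arc limits follow the study, and cell types are the submitters' predicted labels. The paper gives no DG nucleus as excluded for Arc, where the limit removed 1 HC nucleus here.

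Counts were summed per mouse and group over at least 2 nuclei, giving 28 sums of all DG groups. In the setting with HC nuclei of any sort this minimum was dropped for all groups. Sums were tested with edgeR 4.0.16 in R 4.3.3 (TMM, filterByExpr, glmQLFit, glmQLFTest). Genes were called below a Benjamini-Hochberg adjusted p of 0.05, and calls given with no test named are those of edgeR. limma 3.58.1 on mean log2(TPM+1) per mouse (genes above 1 in at least 1 mouse) and DESeq2 1.42.0 were alternatives. Fits were also tested on simulated data, whose outcome is not given here, so no result rests on it. ROTS, the authors' test over nuclei, was not run. Lists were described by counts and medians, with no test. Shares have exact binomial 95% intervals from scipy 1.17.1. Counts include PCR copies, so intervals cover counting error only. Nuclei of a mouse were not treated as replicates. The p-values measure the spread between sums or mouse means, pooled over all DG groups. None of that spread comes from the 1 h FOS- group, which held a single mouse. The FOS+ and FOS- sums of mouse 3 entered separately with no mouse term, except in the limma fit with a replicate block. Gene positions were joined by symbol from GENCODE vM21 (GRCm38).

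Genes named were those called by either test, the 10 with the largest difference of means per direction outside both HC mice with an unadjusted limma p below 0.05, members of the IEG, creatine, glucocorticoid, clock and granule lists, genes the study names for DG, and of every other list the members with the largest change. The result for 1 gene of this rule is left out here. Other names were chosen after their values were seen. The members and lists were chosen with earlier results of these data known. The alternatives covered other tests, scalings, filters, thinning, and leaving out each HC mouse.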

Additional observations from a re-analysis of the deposited data

Results flagged for a closer look

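One HC nucleus of mouse 6, left out of the comparison because of its Arc level, also had 3 other activity transcripts above those of every HC nucleus that was kept. Arc was 6.52 log2(TPM+1), where the highest kept HC nucleus had 1.51. Inhba was 8.63 against 8.06, Synpo 9.29 against 9.06 and Gadd45b, a regulator of DNA demethylation, 7.69 against 6.68. Others were not above the kept nuclei, with Bdnf at 8.71 against 9.07, and Nr4a2, Homer1 and Nptx2 at 0 against 8.01, 5.65 and 5.76. Fos was at 0 in it and Prox1 at 2.00. It had 55 sustained genes above 5, over the highest kept nucleus of that mouse at 46, but 43 early genes, inside the kept range of 35 to 90. It is a single nucleus, with 708328 counts and 4882 genes above 1.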

How the results depend on the processing

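No gene was called by edgeR, and the count was again 0 under the other edgeR settings except 3. It was 1 with Arc not above 1 (Prpf38b, lower), 1 with mice taken by number whatever their date code (Slc6a8, higher), and between 0 and 19 when one HC mouse was left out, the 19 being those without HC mouse 6, all higher and Per2 and Creb3 among them. DESeq2 called 511 genes, with Mir22hg, Slc6a8, Per2, Ldha and Ildr2 among them. limma called 15 genes, 681 without a filter on low values, and 15 when a replicate block for the mouse was added (correlation 0.174). Pairing adds nothing to the contrast itself, since no mouse gave both FOS- 1 h and HC nuclei. Genes at an unadjusted p below 0.05 numbered 529 by edgeR, 1609 by DESeq2, 1125 by limma, 2758 by limma without the filter, 1118 with the block, 869 with HC nuclei of any sort, and 276 to 1023 when one HC mouse was left out.

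Of the list medians, IEGs moved from 0.00 to as high as 2.71 and early genes from 0.12 to 0.62, both without HC mouse 6, where the median of all genes was 0.41. Without HC mouse 7 these medians were 0 and 0.13. Oxidative phosphorylation moved from -0.61 to -0.81 with DESeq2 and with its size factors in edgeR, to -0.55 with limma without a filter and with Arc not above 1, to -0.39 with thinned nuclei, and to 0.07 with HC nuclei of any sort. The share of nuclei with Fos went from 25.9% to 0% in FOS- nuclei and from 43.5% to 13.0% in HC when thinned. Single genes changed sign in 6 instances. Arc, at 2.04, became -1.07 with no Arc filter. Inhba, at -0.76, became 0.81 under limma, with or without the filter or the block, and lay between -1.68 and 2.18 when one HC mouse was left out, the latter without mouse 6. Meg3, at 0.68, became -0.4 with HC nuclei of any sort. The cause of these shifts was not tested, apart from the Arc filter, which removes the HC nucleus with 151 Arc counts. The limit on every value is the single 1 h mouse.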

Other observations

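The 2 DG nuclei labelled 1 h FOS- that had under 4000 genes were not analysed further. One had 4299 counts and 1847 genes above 1, and its Arc of 7.43 log2(TPM+1) rested on 2 counts and its Inhba of 9.08 on 4. The other had 244314 counts and 2070 genes, an Arc of 1.34 from 1 count and no Bdnf.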
